A study of Mus musculus with 2 samples.

Results

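The 58 genes described here encode the protein components of the cytosolic ribosome, together with a few close relatives that carry the same kind of symbol. They are the genes in the platform's probe annotation whose symbol begins with Rpl or Rps and a number, begins with Rplp, or is Rpsa, without the kinases named Rps6k and without pseudogene symbols. They make up 58 of the 16390 named genes on the array and have 61 of its 23474 probes. Of the 58, 35 carry a large-subunit and 23 a small-subunit symbol, and 5 are paralogs or other genes with a look-alike name (Rpl3l, Rpl7l1, Rpl22l1, Rps27l and Rps19bp1), which leaves 53 core ribosomal proteins.

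Each ribosome holds a small subunit, which reads the mRNA, and a large subunit, which joins amino acids and passes the growing chain through an exit tunnel. Ribosomal protein mRNAs are among the most abundant in growing cells, and most begin with a cytosine followed by a run of pyrimidines, the 5' terminal oligopyrimidine (TOP) motif, through which mTORC1 and the La-related protein LARP1 control their translation and stability. In the small intestine, dividing crypt base columnar stem cells and their progenitors make many new ribosomes, whereas secretory and absorptive cells that have left the cell cycle produce other proteins.

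Total RNA of 3 cell populations sorted from mouse small intestinal epithelium was compared on 2 two-colour arrays. All mice, and so every population, carried Atoh1-crePGR, a Cre driven by Atoh1, the transcription factor of the secretory lineage. They also carried Lgr5-EGFP-IRES-creERT2, an EGFP and Cre cassette at the stem cell gene Lgr5, and Rosa26-tdTomato, a Cre reporter. RU486, given on 5 consecutive days, activated the Atoh1-driven Cre and so marked cells that used Atoh1, and their descendants, with tdTomato. After 20 days, cells pooled from 4 mice were sorted into cells with both EGFP and tdTomato (double positive), cells with tdTomato but no EGFP (tdTomato only) and cells with EGFP but no tdTomato (EGFP only). The sources used here do not state the age of the mice. Double-positive RNA on the first array and tdTomato-only RNA on the second carried Cy3, and EGFP-only RNA carried Cy5 on both, with no dye swap. In the comparisons with EGFP only, dye and population therefore cannot be told apart, and fewer cells of a type cannot be told apart from less RNA per cell.

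Each population is 1 biological sample, so no difference below was tested and no error between animals can be given. Values are log2 ratios after background correction and loess, a smooth curve fitted across spot brightness on each array and subtracted, so that genes of like brightness centre near 0. A gene was counted as changed at 2-fold, a log2 ratio of 1 in either direction. The tdTomato-only and double-positive populations were compared by subtracting the ratios of the 2 arrays. The comparisons with EGFP only share that population and are not independent of each other.

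The labels were checked with marker genes on the same scale. Lgr5, the receptor whose locus drives EGFP, had a log2 ratio of 0.26 in the double-positive and -0.89 in the tdTomato-only population, each over EGFP only. Over 9 stem cell markers measured, the median was -0.79 in the double-positive population, and over the 8 measured on the other array it was -1.33 in the tdTomato-only population. Cell cycle markers were below EGFP only for 12 of 12 genes in both populations, against 51.1% of all genes in double-positive and 51.8% in tdTomato-only cells. The medians of these markers were -0.53 and -1.21 in that order. Paneth, goblet and enterocyte markers had medians of 4.83, 2.53 and 2.25 in double-positive cells, and 4.55, 3.37 and 3.09 in tdTomato-only cells. Some Paneth and goblet spots were saturated in Cy3 (Mmp7, Ang4 and Spink4 in double-positive, and Ang4, Tff3, Zg16 and Spink4 in tdTomato-only cells), so their ratios are underestimates. T and intraepithelial lymphocyte markers were also higher, with a median of 2.72 in double-positive and 1.42 in tdTomato-only cells over 10 genes. Among that list, the spots of Cd3e and Cd2 did not exceed background in both channels of either array. The part of these other cells in the ribosomal protein values was not tested.

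Of the 58 genes, 55 were above background in both channels of both arrays. The exceptions were Rpl10, which sits near the peptidyl transferase centre and helps join the subunits, Rpl3l, a paralog of Rpl3 known from muscle, and Rps12 of the small subunit head. Their spots read 82.8, 78.6 and 81.8 in double-positive Cy3, against 71.6, 65.6 and 69.4 in EGFP-only Cy5 of the same array. In the second array they read 80.6, 77.7 and 83.9 in tdTomato-only Cy3, against 73.1, 67.5 and 69.8 in EGFP-only Cy5. These values lie near the blank spots, so no ratio is given. Rpl10 alone passed the background limit in 1 channel, double-positive Cy3, and the bound computed for it was below 1-fold. Several core proteins, among them Rplp0, Rpl3 and Rps2, were not analysed here. Ribosomal protein genes have many processed pseudogenes, and a probe may read transcripts of such copies as well. This was not tested, because probe sequences were not analysed here.

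Promoter sequences show how the pyrimidine run sits at the start of these mRNAs. In RefSeq annotation of the mouse assembly GRCm38.p6, 47 of the 58 genes had a promoter entry. The motif searched on the gene's own strand was a C followed by at least 4 letters that are each C or T. A match began exactly at the annotated start in 11 of 47 genes (23.4%), against 3.01% of all 27025 genes in the same table. Pyrimidines could also precede such a match. Within 10 bases of the start a match was found in 29 of 47 genes (61.7%), against 34.4% of all genes. Annotated starts can lie a few bases from the true one, and a match is a description, not a mapped site. The sequences below, read 5' to 3' from 10 bases before the annotated start for 30 bases, show Rps18 and Rpl28, which carry the run at the start and stand near opposite ends of the ratios in tdTomato-only cells, Rps27l, the paralog with the highest ratio, and Rps9 and Rps3, the genes with the lowest ratios. Capitals mark the match nearest the annotated start, and a sequence without capitals has none within 10 bases of it. In Rps18, Rpl28 and Rps9 the pyrimidine run starts before the capitals. Rps27l holds a longer match farther upstream, in lower case.
Rps18: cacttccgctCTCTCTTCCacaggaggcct
Rpl28: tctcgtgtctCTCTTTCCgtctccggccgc
Rps27l: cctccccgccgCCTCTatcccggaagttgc
Rps9: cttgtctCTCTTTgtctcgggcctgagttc
Rps3: aagggtcgccgcgctgcgcggcgtcattgc
These windows lie at chr17:33955646-33955675 on the minus strand for Rps18, chr7:4792955-4792984 on the plus strand for Rpl28 and chr9:66946076-66946105 on the plus strand for Rps27l, which has a second annotated start without the run. They lie at chr7:3704031-3704060 on the plus strand for Rps9 and chr7:99483690-99483719 on the minus strand for Rps3. Members with the run at the start had a median log2 ratio of -0.31 in double-positive cells over 11 genes, and the 33 measured without it had a median of -0.45. In tdTomato-only cells the medians were -0.55 and -0.69 for the same genes with and without the run. With the run anywhere within 10 bases of the start, the order was the other way round. The medians were -0.45 for 27 measured genes with it and -0.38 for 17 without it in double-positive cells, and -0.65 and -0.53 for the same genes in tdTomato-only cells. By the run at the start, both groups of genes spanned most of the range, from -1.19 to 0.34 with the run and from -1.62 to 0.55 without it in tdTomato-only cells.

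Ribosomal protein genes were mostly lower in double-positive than in EGFP-only cells. Their median log2 ratio after loess was -0.45, which is 1.36-fold lower (-0.94 in the authors' deposited table and -1.23 with each array only centred on its median), against a median of -0.01 over all 11774 genes measured. Of 55 genes, 48 were below 0, against 51.1% of all genes. A single member, Rps3, was at least 2-fold lower, against 0.34% of all genes, and none was 2-fold higher, against 5.1% of all genes. The ratios ran from -1.38 to 0.68, with quartiles of -0.58 and -0.12. Both subunits showed it, with a median of -0.46 over 31 core large-subunit genes and -0.42 over 20 core small-subunit genes. All 20 of the core small-subunit genes were below 0, as were 26 of the 31 core large-subunit genes.

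Against EGFP only, the genes lay lower still in tdTomato-only cells. Their median log2 ratio after loess was -0.59, which is 1.51-fold lower (-1.19 in the authors' deposited table and -1.41 with median centring), against -0.01 over 11381 genes. Of 55 genes, 50 were below 0, against 51.8% of all genes. At least 2-fold lower were Rps3, Rps9, Rpl5, Rps18, Rpl22 and Rpl41, 6 of 55 against 1.19% of all genes, and none was 2-fold higher, against 6.15% of all genes. Rpl5 rests here on 1 of its 2 probes, because the other, at -0.73, carried a quality mark. The median was -0.62 over the 31 core large-subunit genes and -0.70 over the 20 core small-subunit genes.

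**Figure D1:**
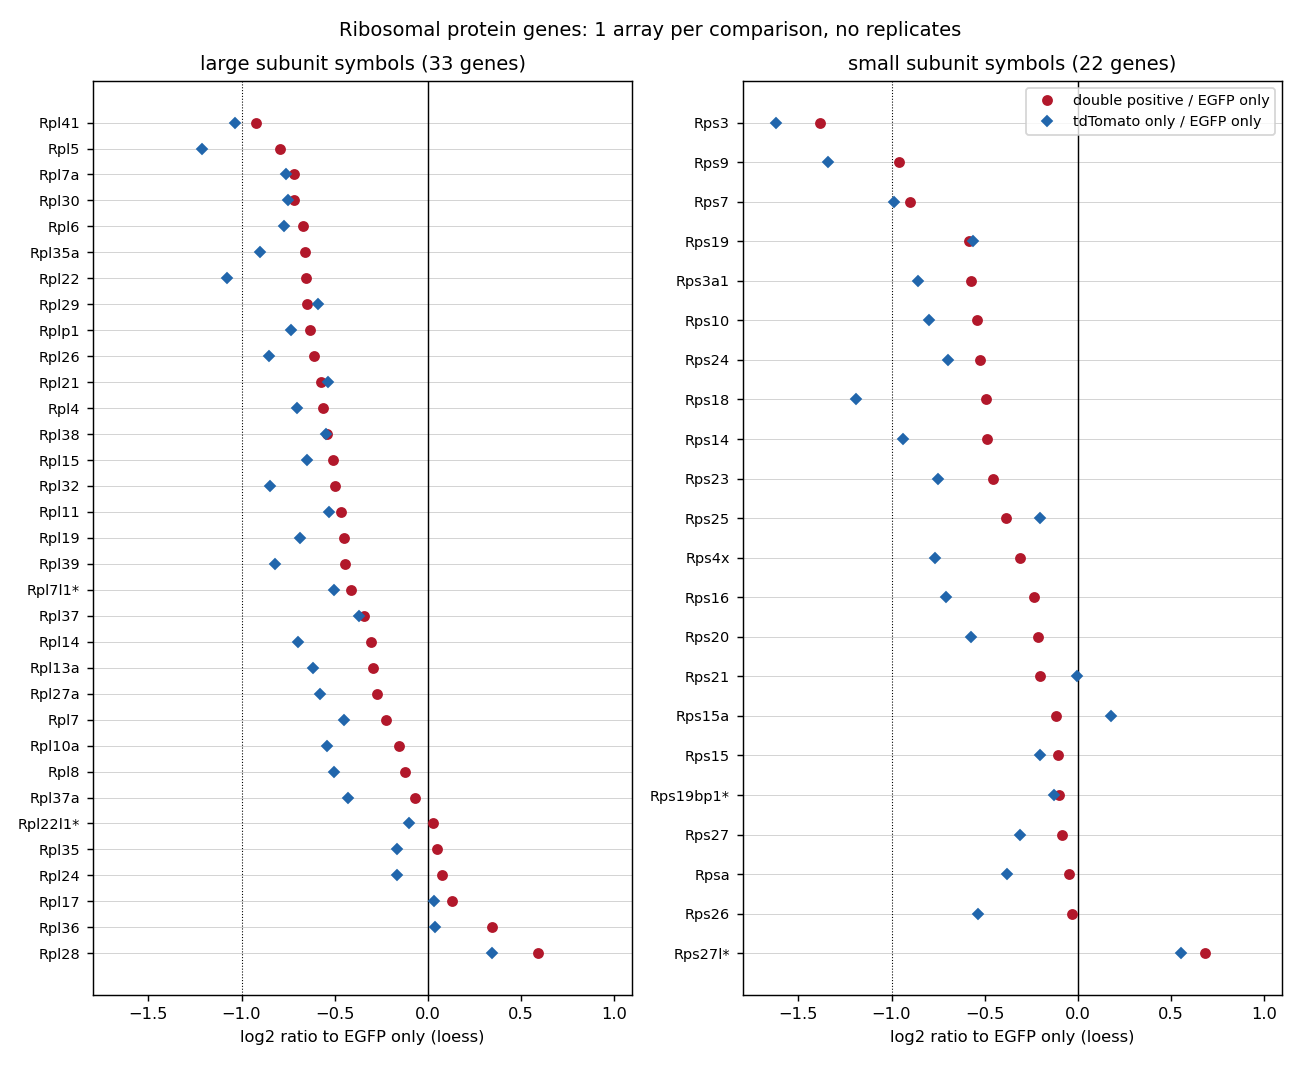
Log2 ratio to EGFP only (x axis, after loess) of each of the 55 measured ribosomal protein genes, with circles for double-positive cells and diamonds for tdTomato-only cells, 1 array each and no replicates; the dotted line marks 2-fold lower and an asterisk marks a paralog or look-alike. Most symbols lie left of 0, Rps3 lies farthest left in both populations, and Rps27l and Rpl28 lie farthest right.

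Rps3 and Rps9, which line the mRNA channel of the small subunit, had the lowest values of the whole group. Rps3, at the mRNA entry and also known for roles in DNA repair, read 6768 in double-positive Cy3, against 39357 in EGFP-only Cy5, and 6587 in tdTomato-only Cy3, against 39956 in EGFP-only Cy5. Its log2 ratio was -1.38 in double-positive cells (2.61-fold lower) and -1.62 in tdTomato-only cells (3.08-fold lower). From the bottom of all genes measured, it was number 9 on the first array and number 6 on the second. Rps9, which also lines the entry side, read 8053 in double-positive Cy3, against 35008 in EGFP-only Cy5, and 6901 in tdTomato-only Cy3, against 34206 in EGFP-only Cy5. Its ratios were -0.96 in double-positive and -1.34 in tdTomato-only cells. The EGFP-only spots of both genes were nearly alike on the 2 arrays, and their Cy3 spots were the dimmer ones on each.

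The other channel proteins were lower by less. Rps14 and Rps26 sit at the mRNA exit, and Rps26 contacts the mRNA just upstream of the decoded codons. Rps14 read 10473 in double-positive Cy3, against 33345 in EGFP-only Cy5, and 8935 in tdTomato-only Cy3, against 34065 in EGFP-only Cy5, with ratios of -0.49 in double-positive and -0.94 in tdTomato-only cells. Rps26 read 9958 in double-positive Cy3, against 22449 in EGFP-only Cy5, and 7986 in tdTomato-only Cy3, against 22338 in EGFP-only Cy5. After loess this was -0.03 in double-positive and -0.54 in tdTomato-only cells. Rps3a1 (Rps3a in the annotation) had ratios of -0.57 in double-positive and -0.86 in tdTomato-only cells. Rps23, which carries a loop into the decoding centre, had -0.45 and -0.75 in the same order. Rps15, which reaches the decoding site with its tail, was at -0.11 in double-positive and -0.20 in tdTomato-only cells. All 7 measured channel genes of the 10 listed were below 0 in both populations, as were 64.5% and 62.8% of other genes with an EGFP-only spot of at least 5000. The medians of the channel genes were -0.49 in double-positive and -0.86 in tdTomato-only cells, against -0.45 and -0.59 over all members measured.

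Rpl5 and Rpl11 bind the 5S ribosomal RNA and, when ribosome assembly is disturbed, hold back Mdm2 so that p53 builds up. Rpl5 has 2 probes. One read 8929 in double-positive Cy3, against 38979 in EGFP-only Cy5, and 8354 in tdTomato-only Cy3, against 38670 in EGFP-only Cy5. The other read 2945 in double-positive Cy3, against 8745 in EGFP-only Cy5, and carried a quality mark on the second array, where it was left out. On the first array the 2 probes lay 0.30 apart on the log2 scale. The gene's ratio was -0.79 in double-positive cells from both probes and -1.21 in tdTomato-only cells from 1 probe. Rpl11 read 5273 in double-positive Cy3, against 14948 in EGFP-only Cy5, and 5691 in tdTomato-only Cy3, against 15170 in EGFP-only Cy5. Its ratios were nearly alike, -0.46 in double-positive and -0.53 in tdTomato-only cells.

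Around the catalytic centre and the stalk that recruits elongation factors, 1 gene each was measured. Rpl8 reaches the peptidyl transferase centre. It read 11083 in double-positive Cy3, against 27157 in EGFP-only Cy5, and 9681 in tdTomato-only Cy3, against 27078 in EGFP-only Cy5, which gave -0.12 in double-positive and -0.50 in tdTomato-only cells. Rplp1, an acidic stalk protein, read 5335 in double-positive Cy3, against 17161 in EGFP-only Cy5, and 5211 in tdTomato-only Cy3, against 15965 in EGFP-only Cy5, with ratios of -0.63 and -0.73 in that order. Among 8 listed proteins of the peptide exit tunnel, 6 were measured. Their medians were -0.45 in double-positive and -0.70 in tdTomato-only cells. Rpl26 and Rpl39, at the tunnel and its outlet, were at -0.61 and -0.45 in double-positive cells, and at -0.85 and -0.82 in tdTomato-only cells.

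Rpl41, Rps7 and Rpl22 were also among the lowest members. Rpl41, a peptide of very few residues that bridges the subunits, read 10555 in double-positive Cy3, against 46541 in EGFP-only Cy5, and 11035 in tdTomato-only Cy3, against 46323 in EGFP-only Cy5. Its ratios were -0.92 in double-positive and -1.03 in tdTomato-only cells. Rps7, needed for small-subunit assembly, read 6029 in double-positive Cy3, against 24116 in EGFP-only Cy5, and 6358 in tdTomato-only Cy3, against 24022 in EGFP-only Cy5. Its ratios of -0.90 and -0.98, in that order, stayed just short of 2-fold. Rpl22, which binds RNA outside the ribosome as well, read 339.8 in double-positive Cy3, against 739 in EGFP-only Cy5, and 266 in tdTomato-only Cy3, against 710 in EGFP-only Cy5, with ratios of -0.65 in double-positive and -1.08 in tdTomato-only cells. Rpl22 is the one gene past 2-fold whose spots are dim.

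Rps18, Rps16 and Rps4x had ratios further from 0 in tdTomato-only than in double-positive cells. Rps18, of the small subunit head, read 11253 in double-positive Cy3, against 36348 in EGFP-only Cy5, and 8526 in tdTomato-only Cy3, against 38952 in EGFP-only Cy5. Its ratios were -0.49 in double-positive and -1.19 in tdTomato-only cells. Rps16, whose tail reaches the tRNA at the decoding site, read 10657 in double-positive Cy3, against 28274 in EGFP-only Cy5, and 8739 in tdTomato-only Cy3, against 27979 in EGFP-only Cy5, with ratios of -0.24 and -0.71 in that order. Rps4x, the X-linked copy of Rps4, read 8921 in double-positive Cy3, against 24299 in EGFP-only Cy5, and 8030 in tdTomato-only Cy3, against 26589.6 in EGFP-only Cy5, with ratios of -0.31 and -0.77.

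A small set did not share the direction. Rps27l, a p53-responsive paralog of Rps27, was the highest member. It read 6629 in double-positive Cy3, against 8316 in EGFP-only Cy5, and 6991 in tdTomato-only Cy3, against 8648 in EGFP-only Cy5. The Cy3 spots are dimmer, as for nearly all spots of this brightness, and loess places the gene at 0.68 in double-positive (1.60-fold higher) and 0.55 in tdTomato-only cells (1.47-fold higher). Its core relative Rps27, a zinc-binding protein of the small subunit, was at -0.08 in double-positive and -0.31 in tdTomato-only cells. Rpl28 read 3136 in double-positive Cy3, against 3779 in EGFP-only Cy5, and 2892 in tdTomato-only Cy3, against 3757 in EGFP-only Cy5, and had ratios of 0.59 and 0.34 in that order. Rpl36 was at 0.35 in double-positive and 0.04 in tdTomato-only cells. Rpl17, at the tunnel outlet, was at 0.13 and 0.03 in the same order. These values above 0 did not hold under every setting. In the authors' deposited table Rps27l was at 0.15 in double-positive and -0.01 in tdTomato-only cells, and Rpl28 at 0.21 and -0.09 in that order. With each array only centred on its median, all 55 genes were below 0 in both populations (against 71.3% of all genes in double-positive and 70% in tdTomato-only cells), Rps27l at -0.27 in double-positive and -0.30 in tdTomato-only cells.

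Rpl24, which bridges the subunits, and Rpl35, at the tunnel outlet, were slightly above 0 in double-positive cells and below 0 in tdTomato-only cells. Rpl24 was at 0.08 in double-positive and -0.16 in tdTomato-only cells, and Rpl35 at 0.05 and -0.17 in that order. The remaining look-alikes stayed near EGFP only or followed the core genes. Rpl22l1, the paralog of Rpl22, was at 0.03 in double-positive and -0.10 in tdTomato-only cells. Rpl7l1, a paralog of Rpl7, was at -0.41 and -0.50 in the same order. Rps19bp1, a protein that binds Rps19 and is no ribosomal subunit, was at -0.10 and -0.13. Over the 4 look-alikes measured, the median was -0.04 in double-positive and -0.11 in tdTomato-only cells. Fau, a ubiquitin-like fusion that yields a small-subunit protein but falls outside the symbol rule, was at 0.04 in double-positive and 0.02 in tdTomato-only cells.

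The size of these ratios differed between normalizations, and most ribosomal protein spots are bright. Before normalization, the Cy3 spot was dimmer than the Cy5 spot for 58 of 58 member probes on the first array and for 57 of 57 on the second. The same held for 61.1% and 56.2% of other named probes above background, and for 91.6% and 88.4% of those whose EGFP-only spot reached 5000. Member probes held 2.94% of the summed spot intensity in double-positive Cy3, against 6.9% in EGFP-only Cy5, and 2.67% in tdTomato-only Cy3, against 6.97% in EGFP-only Cy5. Without loess, with each array centred on its median, the median over all genes measured was -0.21 on both arrays.

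The number of members past 2-fold differed too, together with that of all genes. In double-positive cells it was 24 in the authors' deposited table (against 3.5% of all genes), 35 with median centring (6.29%), 12 with quantile normalization (0.909%), 3 with the mean of the blank spots subtracted (3.41%) and 1 with a smaller background offset (0.671%). In tdTomato-only cells it was 39 in the authors' deposited table (6.92%), 40 with median centring (7.47%), 13 with quantile normalization (2.21%), 5 with the blank mean subtracted (5.21%) and 3 with the smaller offset (1.98%). In each of these settings more members lay below 0 than above it.

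**Figure D2:**
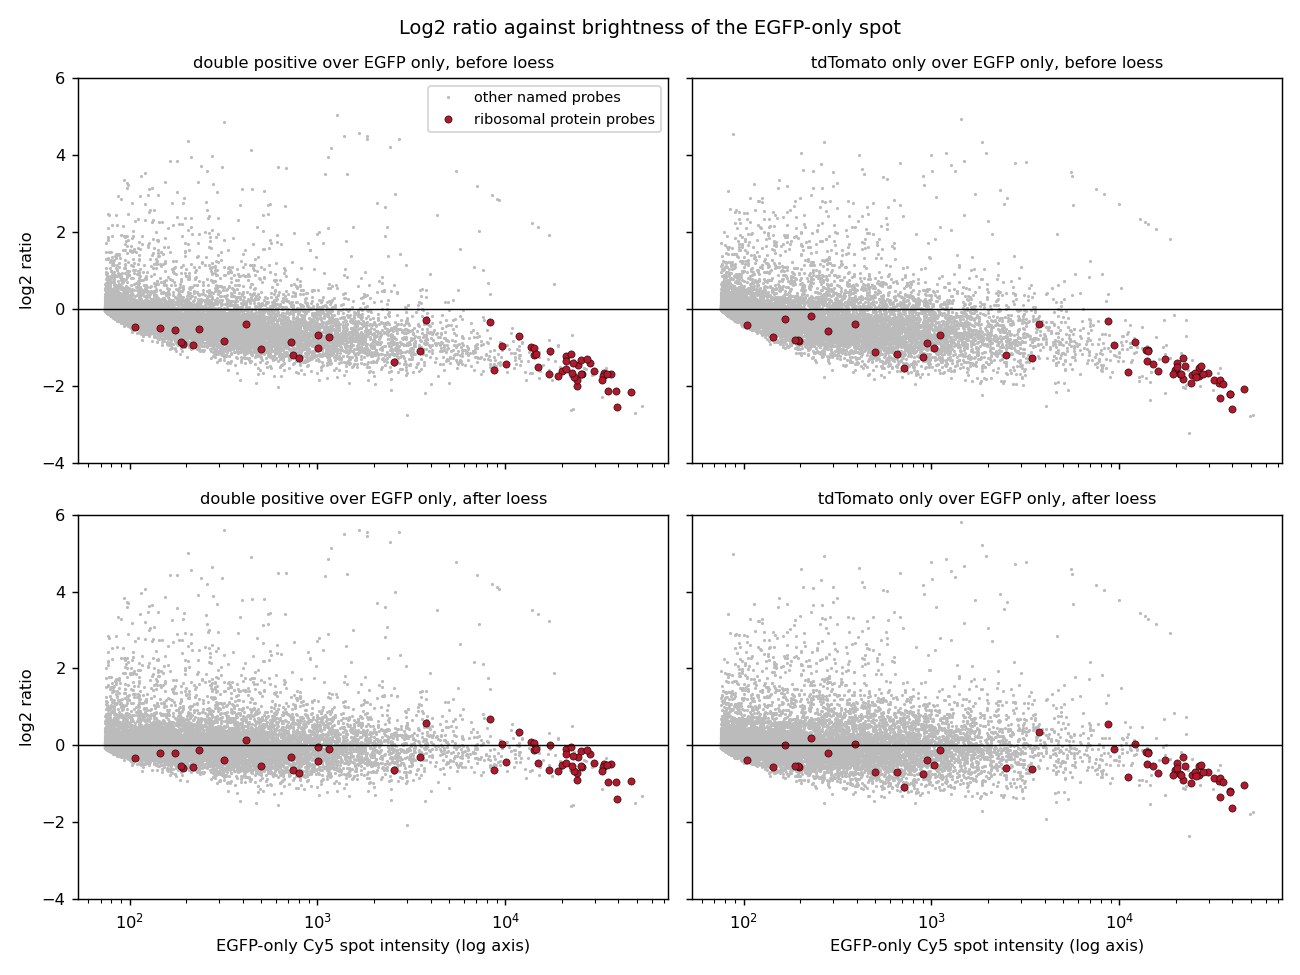
Log2 ratio (y axis) against the EGFP-only Cy5 spot intensity (x axis, log scale) of named probes above background, before loess (upper panels) and after it (lower panels), with red points for ribosomal protein probes and grey points for other probes. Before loess the bright end of each array bends below 0 and the ribosomal protein probes lie in it; after loess the bend is smaller and most red points remain below 0.

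Comparison with other genes in the same class of EGFP-only spot gave smaller differences at the brightest end. That spot is also the denominator of the ratio, so choosing genes by a bright one favours ratios below 0 in both sets. Among genes with an EGFP-only spot of at least 5000, the median in double-positive cells was -0.46 for 36 members and -0.17 for 200 other genes, and in tdTomato-only cells it was -0.72 for 36 members and -0.19 for 196 others. Among those others, 64.5% were below 0 in double-positive and 62.8% in tdTomato-only cells, against 31 and 34 of the 36 members. At 20000 or more, the medians came close in double-positive cells, with -0.50 for 25 members and -0.52 for 20 other genes. In tdTomato-only cells at that brightness they were -0.78 for 24 members and -0.57 for 19 others. Members with dim spots also had medians below those of the other genes. The part of brightness and dye in these ratios was not tested. With an EGFP-only spot under 1000, the median in double-positive cells was -0.38 for 13 members and 0.00 for 10222 others. Of the 13 members, 12 were below 0, against 51.1% of all genes measured at any brightness. In tdTomato-only cells the median was -0.54 for 14 members and -0.01 for 9877 others. Again 12 members were below 0, against 51.8% of all genes measured. Dim spots lie closer to background, and the offset added in background correction draws their ratios towards 0.

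**Figure D3:**
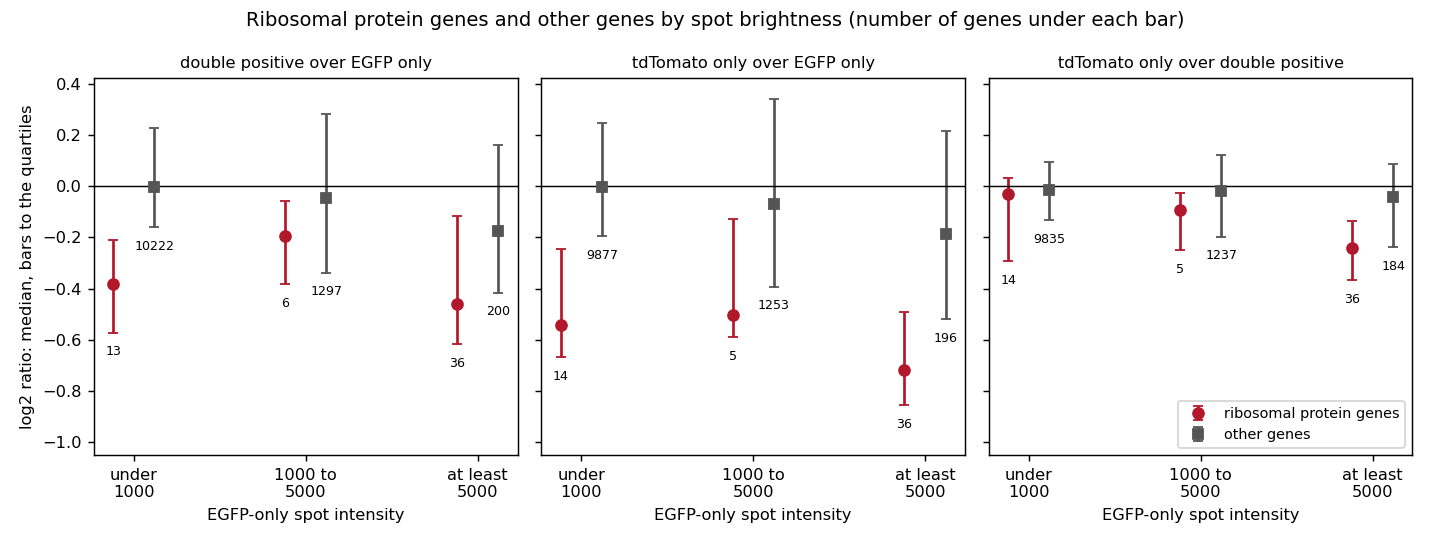
Median log2 ratio (y axis, points; bars run between the quartiles over genes, not an error over samples) of ribosomal protein genes (circles) and other genes (squares) in 3 classes of EGFP-only spot intensity, for each comparison, with the number of genes under each bar. The members lie below the other genes in every class of the first 2 panels, and in the third panel they lie apart mainly at 5000 and above.

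Ribosomal protein genes were slightly lower in tdTomato-only than in double-positive cells. The median log2 difference was -0.23, which is 1.18-fold lower, against -0.02 over 11311 genes. Of 55 genes, 49 were below 0, against 54.3% of all genes. None was 2-fold lower or higher, against 0.274% and 0.813% of all genes, and the range was -0.70 to 0.30. The EGFP-only Cy5 spots, read on both arrays, give the only measure of technical spread. Over 57 member probes, the log2 difference between these spots had an SD of 0.0706, with Rpl30 farthest at 0.21. Over all 11445 named probes measured it was 0.0896. This spread holds no variation between animals or sorts and leaves out the error of the Cy3 spots, which the difference of the arrays also carries.

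After loess, the 5 genes with the lowest differences were of the small subunit. Rps18 was at -0.70, Rps26 at -0.51, Rps16 at -0.47, Rps4x at -0.46 and Rps14 at -0.45. The difference of Rps18 corresponds to 1.63-fold lower. Its EGFP-only spot was brighter by 0.12 on the second array, and with the Cy3 spots compared directly, without the EGFP-only spots, its difference was -0.40. In that direct comparison Rps26 was at -0.32, Rps16 at -0.29, Rps14 at -0.23 and Rps4x at -0.16. The EGFP-only spot of Rps4x was brighter by 0.15 on the second array. By direct comparison 2 large-subunit genes lay lower than Rps18, Rpl14 at -0.47 and Rpl22 at -0.43. In the authors' deposited table the lowest difference was that of Rps20, at -0.87. After loess, Rpl22 was the lowest of the large subunit, at -0.43, and Rpl8 was at -0.38. The 5S partners were at -0.27 for Rpl5, from 1 probe, and -0.06 for Rpl11. Rps3, lowest against EGFP only, was at -0.24, near the median of the members.

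A few genes were higher in tdTomato-only cells after loess. Rps15a, a small-subunit protein that binds the 18S rRNA, read 215 in tdTomato-only Cy3, against 178 in double-positive Cy3, with EGFP-only Cy5 spots of 228 and 234 on the same arrays. Its log2 difference was 0.30, and -0.12 in double-positive and 0.18 in tdTomato-only cells over EGFP only. Rps21 read 151 in tdTomato-only Cy3, against 135 in double-positive Cy3, with a difference of 0.20. Over EGFP only it was at -0.20 in double-positive cells and -0.003 in tdTomato-only cells. Rps25, which some viral internal ribosome entry sites require, read 206 in tdTomato-only Cy3, against 196 in double-positive Cy3, with a difference of 0.18. Its EGFP-only spot was dimmer by 0.15 on the second array, and the direct difference of the Cy3 spots was 0.04. It had ratios to EGFP only of -0.20 in tdTomato-only and -0.38 in double-positive cells. These 3 genes have dim spots. Rpl29 and Rpl21 differed by 0.06 and 0.04, less than the SD of the EGFP-only spots between the arrays. With the Cy3 spots compared directly they were at 0.08 and -0.08, and in the authors' deposited table at -0.01 and -0.02. Rpl29 was at -0.59 in tdTomato-only and -0.65 in double-positive cells over EGFP only, and Rpl21 at -0.54 and -0.57 in the same order.

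Compared directly between the arrays in Cy3, the members' median difference was -0.08 and 40 of 55 were below 0, against a median of 0.00 and 49.5% below 0 over all genes. In this comparison dye is shared, and each population still rests on 1 array. With an EGFP-only spot of at least 5000, the direct median was -0.10 for 36 members and 0.04 for 184 other genes. Of the 36 members, 28 were below 0, against 49.5% of all genes. By the difference of the loess-corrected arrays, the same 36 members had a median of -0.24, all below 0 (against 58.2% of the 184 others), and the others -0.04. Under 1000, the 14 members had -0.03 and the 9835 other genes -0.02 by the difference of the arrays.

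**Figure D4:**
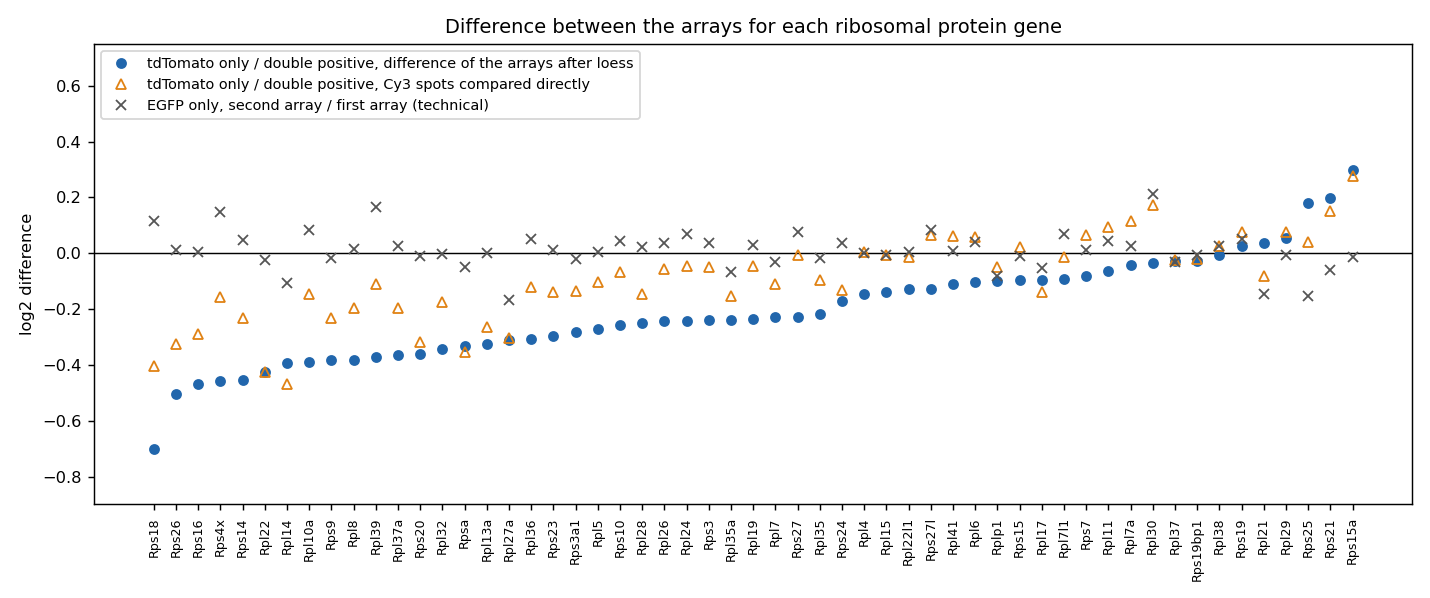
Log2 difference (y axis) for each of the 55 measured ribosomal protein genes, ordered by the difference between tdTomato-only and double-positive cells after loess (filled circles), with the direct comparison of the Cy3 spots (open triangles) and the EGFP-only Cy5 spots of the second array over the first (crosses). Circles lie below 0 for 49 genes, triangles for 40, and the crosses scatter around 0 with an SD of 0.0706.

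Other parts of the translation machinery gave a mixed picture, in lists chosen with results of these data known. Of 15 further mRNAs known for oligopyrimidine starts, 13 were measured, with medians of -0.11 in double-positive and -0.39 in tdTomato-only cells. In the same order, 9 and 10 of them were below 0 (against 51.1% and 51.8% of all genes). Most of them have an EGFP-only spot of at least 5000, and of non-member genes that bright 64.5% and 62.8% were below 0. Eef1a1, the factor that brings aminoacyl-tRNA to the ribosome, was lowest, with 9235 in double-positive Cy3, against 53126 in EGFP-only Cy5, and 7703 in tdTomato-only Cy3, against 51725 in EGFP-only Cy5. Its ratios were -1.31 in double-positive and -1.73 in tdTomato-only cells. Eef2, the translocation factor, was instead at 0.56 and 0.06 in that order. Pabpc1, the poly(A)-binding protein, was at 0.33 in double-positive and -0.39 in tdTomato-only cells.

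Factors that build ribosomes had medians of -0.14 in double-positive and -0.36 in tdTomato-only cells, over 25 measured of 28 listed. Of the 25, 18 were below 0 in double-positive cells (against 51.1% of all genes) and 22 in tdTomato-only cells (against 51.8%). Between tdTomato-only and double-positive cells the median difference was -0.20, with 23 of 25 below 0 (against 54.3% of all genes). Npm1, a nucleolar chaperone, was at -0.57 in double-positive and -1.04 in tdTomato-only cells. Ncl, nucleolin, was at -0.35 and -0.81 in that order, and Myc, a transcription factor that drives ribosome production, at -0.48 and -1.08. These 3 genes had the lowest differences of the 25 between tdTomato-only and double-positive cells, at -0.48, -0.47 and -0.61. Polr1d and Rrn3 were above 0, at 0.04 and 0.01.

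Mitochondrial ribosomal protein genes, which serve a separate ribosome, had medians of -0.27 over 75 genes in double-positive and -0.24 over 76 genes in tdTomato-only cells. The median difference between tdTomato-only and double-positive cells was 0.02 for them and -0.23 for the cytosolic genes. With the Cy3 spots compared directly, the cytosolic median was -0.08. The 2 sets differ in brightness. On the first array the brightest mitochondrial EGFP-only spot was 4957 (Mrpl42), and the median spot of the cytosolic probes was 14534. Cytosolic genes in the dim class above had a median difference near that of other genes. Abundant housekeeping genes, 14 of 16 measured, had medians of -0.45 in double-positive and -0.04 in tdTomato-only cells and ran from -1.50 to 0.45 and from -1.78 to 0.67. Ppia, cyclophilin A, set both lower ends, with 7605 in double-positive Cy3, against 49168 in EGFP-only Cy5, and 7189 in tdTomato-only Cy3, against 49467 in EGFP-only Cy5. Values as low as that of Rps3 were thus also measured for very bright genes outside the ribosome. Genes mutated in human Diamond-Blackfan anaemia, a failure of red cell production, had 8 of 9 measured members, with medians of -0.56 in double-positive and -0.75 in tdTomato-only cells.

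Markers of cell types also differed from EGFP only, in both directions. Over the 9 stem cell markers, the summed spots were 10411 in double-positive Cy3, against 38422 in EGFP-only Cy5, and 6435 in tdTomato-only Cy3, against 38229.9 in EGFP-only Cy5. Over 12 cell cycle markers they were 11727 in double-positive Cy3, against 28112 in EGFP-only Cy5, and 9243 in tdTomato-only Cy3, against 27364 in EGFP-only Cy5. Over the 12 lymphocyte markers on the array they were 13739.7 in double-positive Cy3, against 2441 in EGFP-only Cy5, and 6505 in tdTomato-only Cy3, against 2372 in EGFP-only Cy5. All these sums are of spots before normalization, and bright genes weigh most in them. Olfm4 alone read 3786 in double-positive Cy3, against 23003 in EGFP-only Cy5. Among the lymphocyte markers, Gzma, Gzmb and Ccl5 read 3815, 3617 and 3524 in double-positive Cy3. Myeloid markers went both ways, with medians of 0.18 in double-positive and 0.24 in tdTomato-only cells. Among them C1qb was at 3.62 and 3.30, Fcer1g at 1.88 and 0.76 and Tyrobp at 1.20 and 0.54, in that order, and Cd74, Cd68 and Csf1r were below 0 in both. B or plasma cell markers had medians of 0.19 and -0.01, enteroendocrine markers -1.31 and -0.51, and tuft cell markers -0.47 and -0.01, in the same order. Their part in the ribosomal protein ratios was not tested.

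**Figure D5:**
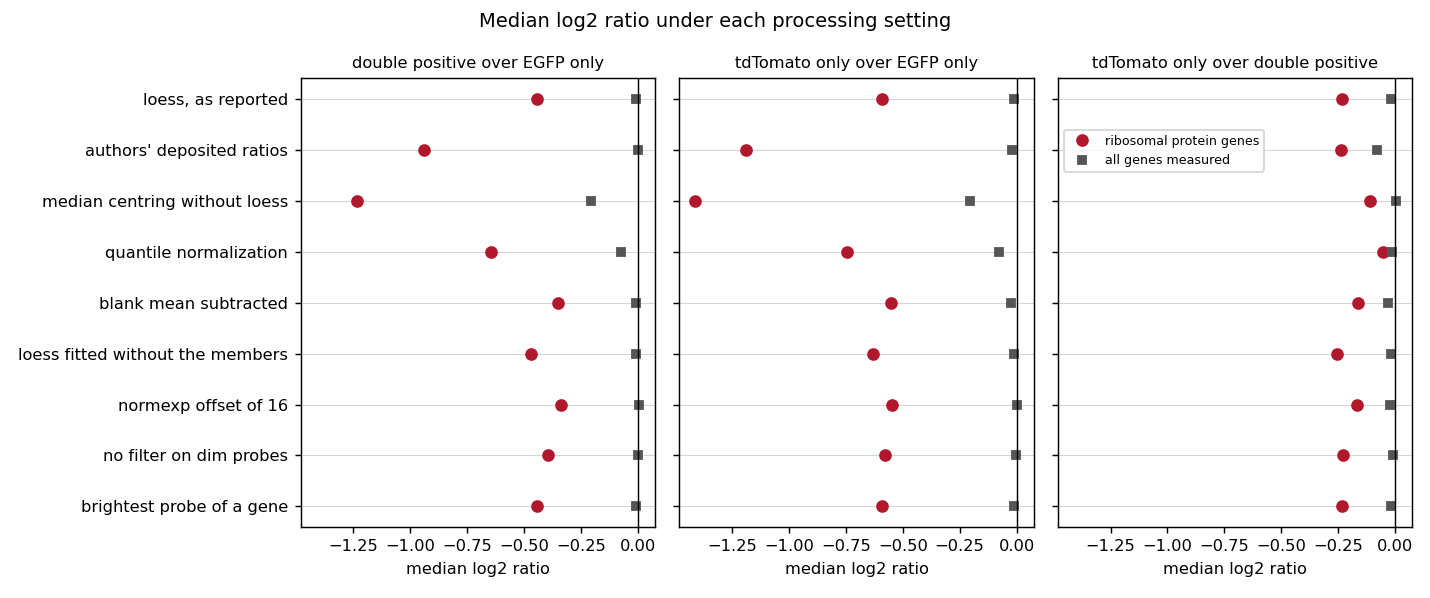
Median log2 ratio (x axis) of the ribosomal protein genes (circles) and of all genes measured (squares) under each way of processing the arrays (rows), for the 3 comparisons. The members' median lies below 0 in every row, between -0.34 and -1.23 for double-positive cells, between -0.55 and -1.41 for tdTomato-only cells, both over EGFP only, and between -0.05 and -0.25 for tdTomato-only over double-positive cells.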

How the data were processed

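Per the labels' protocols, total RNA was amplified as amino allyl RNA, coupled to Cy dyes and fragmented for Toray arrays. The authors deposited the median intensity of each spot in both channels, per the file headers, and a table of normalized log2 ratios whose direction, the Cy3 over the Cy5 population, is given in the sample descriptions. That table's columns each had a median of 0. Scanner software and settings beyond the 3 gains in the headers are not given in the sources used here, nor is the array design's genome build, nor whether 1 EGFP-only extract served both arrays.

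Spot intensities were corrected with normexp (offset 50, no local background) and normalized by loess within each array, controls and quality-marked spots at weight 0, with limma 3.58.1 in R 4.3.3. A probe was called above background at more than 2 SD over the mean blank. Limits were 82.2 and 74.1 in double-positive Cy3 and EGFP-only Cy5 of the first array, and 85.4 and 75.7 in tdTomato-only Cy3 and EGFP-only Cy5 of the second. Probes of a gene above background in both channels were averaged. Median intensities over all probes were 104 and 98.3, and 108 and 98.2, in the same order. No member spot was saturated. The number of arrays limits the precision. The steps were also run on simulated arrays, with a dye curve smaller than the bend of these arrays and opposite to it. That run therefore does not cover the shift that loess makes here for bright spots.

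Probes were named through the platform's annotation and updated to RefSeq symbols. Of 16632 named probes none had several genes, and 6842 were unnamed. With 1 array per comparison no test was made. Named members were those of the channel, 5S, peptidyl transferase, stalk and paralog lists and the 5 lowest and highest per comparison; other genes come from the lists or are given as relatives of a named member. The members and lists were chosen with earlier results of these data known. Tables were drawn with Python 3.11.15, pandas 2.3.3 and matplotlib 3.10.9.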

Additional observations from a re-analysis of the deposited data

Results flagged for a closer look

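For 4 genes the ratio to EGFP only lay on opposite sides of 0 in the 2 populations. Each value comes from 1 array, and the difference between populations was not tested. Rps15a was above EGFP only in tdTomato-only cells (0.18) and below it in double-positive cells (-0.12), a difference of 0.30. The other three lay the other way round. Rpl24 differed by -0.24, Rpl35 by -0.22 and Rpl22l1 by -0.13, each below 0 in tdTomato-only and above 0 in double-positive cells. Other settings put several of them on 1 side. With each array only centred on its median, all 4 genes were below 0 in both populations. In the authors' deposited table and with quantile normalization, Rpl24, Rpl35 and Rpl22l1 were below 0 in both, and with the blank mean subtracted they were above 0 in both. Rps15a kept opposite sides in those 3 settings.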

How the results depend on the processing

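No paired analysis was possible because each comparison rests on 1 array without replicates. Leaving out a replicate was impossible for the same reason, and no member had a saturated spot to leave out. Across all settings run, the members' median stayed below 0 in each comparison and none reversed. In double-positive cells the median was -0.94 by the authors' deposited table, -1.23 after median centring, -0.64 with quantile normalization, -0.35 with the blank mean subtracted and -0.34 with an offset of 16. The first 4 gave 24, 35, 12 and 3 members at least 2-fold lower. In tdTomato-only cells the median was -1.19, -1.41 and -0.75 under the first 3 settings, with 39, 40 and 13 members 2-fold lower, and an offset of 16 left 3. Restricted to members with an EGFP-only spot of at least 1000, chosen after seeing the data, it was -0.68. Between tdTomato-only and double-positive cells the median was -0.11 with median centring, -0.054 with quantile normalization and -0.081 with the Cy3 spots compared directly, the last also chosen after seeing the data. With the loess curve fitted without the members the medians were -0.47, -0.63 and -0.25 in the 3 comparisons. With genes of updated symbols added, a choice made after seeing the data, they were -0.43, -0.59 and -0.23.

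Counts over all genes moved too. In double-positive cells, 40 genes at least 2-fold lower became 435 in the authors' deposited table, 740 with median centring, 107 with quantile normalization, 402 with the blank mean and 79 with an offset of 16. The 601 higher became 1516, 364 and 1173 in the deposited, centred and blank-mean settings. In tdTomato-only cells, 135 lower became 864, 850, 252, 593 and 225 in the same 5 settings, and 700 higher became 1595, 407 and 1225. Between the arrays, 31 lower became 215, 163 and 58 in the deposited, blank-mean and offset settings, and 92 higher became 216 and 206 in the first 2. The cause of these shifts was not tested. Low signal over background limits Rps15a, Rps21, Rps25 and Rpl21.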
